A study of Mus musculus with 3 samples.

Results

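The genes of Wnt signalling were examined in RNA sequencing counts from mouse JB6 P+ cells, a skin epidermal line in which tumour promoters induce transformation. The members were chosen by gene symbol, with earlier results of these data known. They were the Wnt, Fzd, Sfrp, Dkk, Rspo, Dvl and Tcf7 families, Lgr4, Lgr5 and Lgr6, and 16 further named genes, which gave 66 of the 24421 genes in the table. There were 3 libraries with 1 per group. The CDDO+TPA library came from cells given 10 ng/mL of the phorbol ester TPA plus CDDO, a synthetic triterpenoid, at 50 nM. The TPA library came from cells given 10 ng/mL TPA alone, and the control library from cells labelled as control. Both treatments were given on alternate days for 5 days in medium with 1% serum, whereas for the control the sources used here do not give the medium, time or vehicle. The deposited column read as CDDO+TPA names CDDO without TPA and was matched as the only sample whose labels name CDDO. Values given for CDDO+TPA are those of that column.

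Wnt proteins are secreted lipid-modified ligands that bind Frizzled receptors together with the coreceptors LRP5 and LRP6. Binding recruits Dishevelled proteins and halts the complex of AXIN, APC and GSK3 kinases that otherwise marks beta-catenin for destruction, so that beta-catenin can act with TCF and LEF factors on target genes. Some ligands, WNT5A and WNT11 among them, act largely without beta-catenin, through cell polarity and calcium routes. Several targets, such as Axin2, Nkd1, Notum, Znrf3 and Rnf43, feed back to restrain the pathway. In skin, Wnt signalling is known for its part in hair follicle formation and growth.

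The libraries held 7872089 (CDDO+TPA), 7813035 (TPA) and 8190078 (control) reads assigned to genes, and levels are given as CPM, counts per 1000000 reads after scaling of the library totals. With 1 library per group there was no spread between cultures to test against, no p-value was computed, and all intervals cover counting error only. Comparisons were limited to the 13100 genes that reached 1 CPM in any of the libraries. The size rule asked for a log2 fold change of 1 or more in either direction, together with a fold whose 95% counting interval did not include 1. What it finds holds for these libraries and is no test of the treatments. In bulk RNA, fewer cells that express a gene and less of its RNA per cell cannot be told apart. Of 12 keratinocyte markers, Krt5, Krt1 and Epcam had 0 reads in every library and Krt14 had at most 1 read, although the labels call the cells skin epithelial. The 5 that passed the level filter were Krt10, Dsp, Itga6, Itgb4 and Lama3. The keratinocyte list summed to 171 CPM in the CDDO+TPA library, 127 CPM in the TPA library and 104 CPM in the control library, of which Itga6 alone made up 158, 91.4 and 86.2 CPM. Krt10 ran the other way, with 6.59, 9.16 and 13.0 CPM, and Itgb4 was highest in TPA, with 3.29, 23.2 and 2.87 CPM. Fibroblast and mesenchymal markers summed to 2620, 2132 and 3246 CPM in the same order, with 9 of 10 past the level filter. Among leukocyte markers, Ptprc and Cd3e had 0 reads in every library, Cd68 alone passed the filter, and the list summed to 72.0, 53.0 and 22.3 CPM. Of 5 endothelial markers, Vwf had 198, 290 and 49.9 CPM in the CDDO+TPA, TPA and control libraries, and Pecam1 had 5, 13 and 2 reads. Cdh5, Kdr and Tek had at most 3 reads in any library, and the list summed to 199, 292 and 50.7 CPM. Of 5 melanocyte and Schwann cell markers, Dct and Sox10 had 0 reads in every library. That list summed to 37.3, 16.9 and 27.0 CPM, of which Mitf alone made up 35.2, 15.9 and 25.3 CPM. The part of these markers in the differences below was not tested.

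Of the 66 members, 34 passed the level filter, 18 had at most 6 reads in any library and 14 had none. The 14 without a read were the ligand genes Wnt1, Wnt2, Wnt6, Wnt9b and Wnt10a, the receptor genes Fzd9 and Fzd10, the R-spondin genes Rspo1 and Rspo3, and the inhibitor genes Dkk1, Sfrp2, Wif1, Nkd1 and Nkd2. A count of 0 allows a level of up to 0.380 CPM in the CDDO+TPA library, 0.377 CPM in the TPA library and 0.374 CPM in the control library, at 3 counts per library. Together the members held 0.280% of assigned reads in the CDDO+TPA library, 0.298% in the TPA library and 0.306% in the control library. A member could pass the filter through a single library, so that a member below 1 CPM in the other libraries was counted through the library where it was highest. Wnt5b, Wnt8b and Wnt11 passed through the TPA library alone, and Wnt3 and Wnt7a through the CDDO+TPA library alone. Dkk2 and Axin2 passed through both treated libraries and not through control, and Rnf43 through the CDDO+TPA and control libraries.

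Promoter sequences were available for 44 of the 66 members (RefSeq, build GRCm38.p6). Wnt5a, Fzd2, Fzd3, Lrp5, Lrp6, Porcn, Znrf3, Axin1 and Apc were among those without a sequence and were not searched. The 250 bases before each start site were searched on both strands for the TCF and LEF core CTTTGAT or CTTTGAA, for the AP-1 site TGAGTCA, through which phorbol esters are known to act, and for the core TGACNNNGC of the antioxidant response element, the site bound by NRF2. The 4 windows below, chosen after the values were seen, are examples from members described in the results, at least 1 for each motif found among measured members, and each holds 1 match, in capitals. All run 5′ to 3′ on the strand of the gene and end at the base before its start site.
Wnt11 (chr7:98834862-98835111, plus strand): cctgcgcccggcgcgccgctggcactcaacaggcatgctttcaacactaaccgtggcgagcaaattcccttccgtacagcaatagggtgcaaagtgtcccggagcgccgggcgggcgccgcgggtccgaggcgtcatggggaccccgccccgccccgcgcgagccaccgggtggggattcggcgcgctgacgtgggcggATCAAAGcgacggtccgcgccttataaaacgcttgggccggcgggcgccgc
Wnt5b (chr6:119544348-119544597, minus strand): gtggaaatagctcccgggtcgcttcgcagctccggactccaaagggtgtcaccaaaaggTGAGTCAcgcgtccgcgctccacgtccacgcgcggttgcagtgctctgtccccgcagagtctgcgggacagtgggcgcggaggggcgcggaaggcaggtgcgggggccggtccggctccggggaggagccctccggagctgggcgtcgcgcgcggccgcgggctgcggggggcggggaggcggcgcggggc
Dvl2 (chr11:70000342-70000591, plus strand): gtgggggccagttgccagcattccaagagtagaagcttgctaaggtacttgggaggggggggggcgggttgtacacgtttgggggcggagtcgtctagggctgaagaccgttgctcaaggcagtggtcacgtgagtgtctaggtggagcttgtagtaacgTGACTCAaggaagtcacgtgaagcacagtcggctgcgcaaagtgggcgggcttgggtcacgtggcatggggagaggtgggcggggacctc
Tcf7l1 (chr6:72789046-72789295, minus strand): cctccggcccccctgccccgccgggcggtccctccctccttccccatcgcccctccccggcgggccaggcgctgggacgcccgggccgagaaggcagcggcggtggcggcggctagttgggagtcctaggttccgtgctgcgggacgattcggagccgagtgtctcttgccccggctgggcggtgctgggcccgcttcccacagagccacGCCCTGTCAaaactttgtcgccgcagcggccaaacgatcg
The capitals mark the TCF and LEF core read on the opposite strand, 51 bases before the start, in Wnt11, and the AP-1 site in Wnt5b (191 bases) and, read on the opposite strand, in Dvl2 (90 bases). In Tcf7l1 they mark the antioxidant element core, read on the opposite strand, 40 bases before the start. The listed Dvl2 start lay 34 bases from the first exonic base of the deposited table, and Wnt5b and Wnt11 have other listed starts that were not searched.

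Among all 32851 promoter windows of the RefSeq table, 3.21% held CTTTGAT, against 1 of the 44 members (2.27%, Wnt11). CTTTGAA was held by 4.46% of all windows and by 1 member (2.27%), Dkk1. The AP-1 site was in 4.46% of all windows and in 2 members (4.55%). The antioxidant element core was in 10.2% of all windows and in 5 members (11.4%), which were Wnt16, Fzd5, Fzd9, Lgr4 and Tcf7l1. With 1 to 5 members per motif, no difference from all windows is read from these shares. The member windows had a median G and C content of 67.4%, and all windows 52.4%. A match is a description of letters, and no binding was measured.

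Setting TPA against control addresses how the pathway differed in cells given the tumour promoter. The factor genes Lef1 and Tcf7l1 were higher in the TPA library, and the ligand Wnt5a and the receptor Fzd2 were lower. Past the size rule, 6 of the 34 members were higher and 2 were lower, against 9.57% and 5.91% of all 13100 genes. Of the higher members, Wnt5b, Wnt8b and Wnt11 passed the level filter through the TPA library alone, so their direction was partly set by the filter. Dkk2 passed through the TPA and CDDO+TPA libraries but not the control library, so the same holds for it. Either direction together, 23.5% of the 34 members and 15.5% of all genes were past the rule. Of the 22 members with a mean of at least 10 CPM, 1 was higher (Tcf7l1) and 2 were lower (Wnt5a and Fzd2), and 8.67% of all genes at that level were past the rule. The members had a median log2 fold change of 0.14, against 0.00 over all genes tested, and at a mean of at least 10 CPM the medians were -0.06 for the members and -0.04 for all genes.

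Setting CDDO+TPA against TPA addresses how the pathway differed when the triterpenoid was given as well. Wnt5a was higher in the CDDO+TPA library, the sparse ligand Wnt11 was lower, and the sparse receptor Lgr6 was higher. Past the size rule, 3 members were higher and 2 were lower, against 7.87% and 7.78% of all genes, and 14.7% of the 34 members were past it in either direction, against 15.6% of all genes. That share was near the background. The lower members, Wnt5b and Wnt11, had passed the level filter through the TPA library alone. Rnf43, among the higher members, was below 1 CPM in the TPA library and had passed through the CDDO+TPA and control libraries. The median log2 fold change was -0.01 over the members and 0.01 over all genes tested. Among the 22 more abundant members, 1 member was higher (Wnt5a) and 0 lower, and 7.57% of all genes with a mean of at least 10 CPM were past the rule. CDDO+TPA was also set against control, where 5 members were higher and 0 lower, against 8.02% and 3.37% of all genes. Of the higher members, Wnt3 and Wnt7a had passed the level filter through the CDDO+TPA library alone, and Dkk2 through the CDDO+TPA and TPA libraries. In that comparison 14.7% of the members and 11.4% of all genes were past the rule, and the median was 0.05 over the members and -0.02 over all genes tested. At a mean of at least 10 CPM no member was past the rule, against 6.79% of all genes. Any pair of these comparisons shares 1 library, so their values are given side by side for each member and are not independent of each other.

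**Figure D1:**
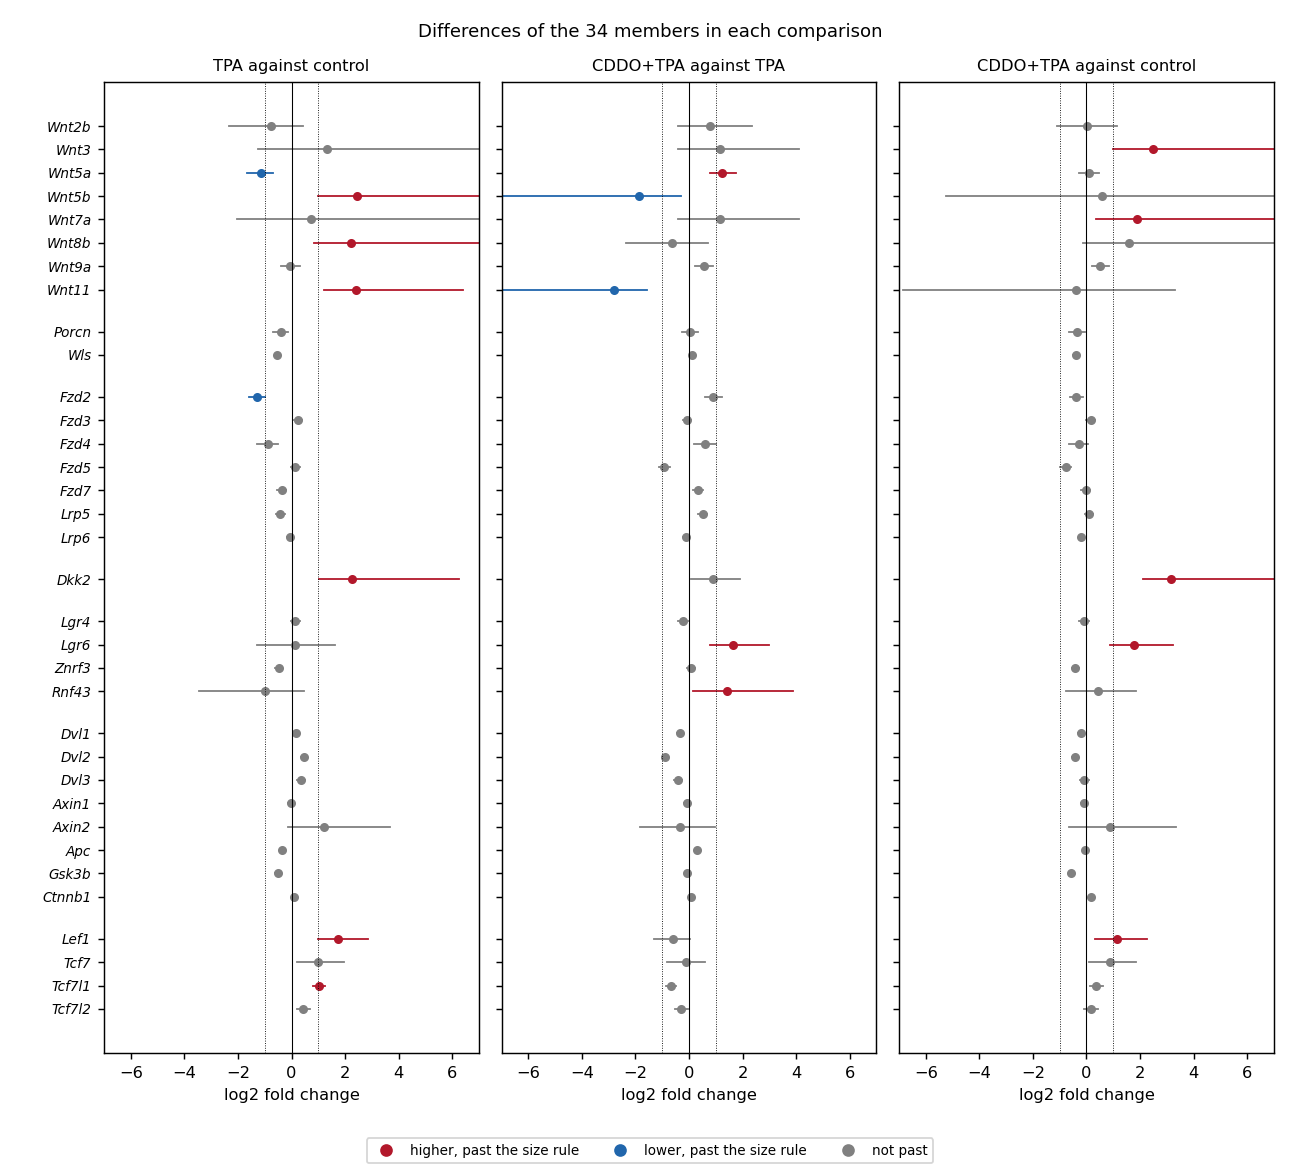
Log2 fold change (horizontal axis, prior count of 2) of the 34 members that passed the level filter, in rows, in each comparison; lines are 95% counting intervals of the fold, clipped at 7 in size, and dotted lines mark a log2 fold change of 1. Transducers such as Ctnnb1, Axin1 and Lrp6 sat near 0 in all 3 panels, whereas the wide lines belong to members with few reads such as Wnt11 and Dkk2.

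Wnt ligands were sparse, and 8 of 19 passed the filter. Per kilobase of exon, a scale on which genes can be compared, Wnt9a and Wnt5a were the most abundant ligands in every library. Wnt9a held 7.26, 4.88 and 5.04 CPM per kilobase in the CDDO+TPA, TPA and control libraries, and Wnt5a held 3.77, 1.58 and 3.54. The next ligand by mean over the libraries, Wnt2b, had 0.532, 0.281 and 0.524 CPM per kilobase.

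Wnt5a, a ligand that acts largely without beta-catenin, had 16.5 CPM (130 reads) in the CDDO+TPA library, 6.90 CPM (55 reads) in the TPA library and 15.5 CPM (124 reads) in the control library. It lies on chromosome 14, 28505473 to 28525515, plus strand (mm10). The TPA library was the low one, and the other two were close to each other. Wnt5a was 2.24-fold lower in TPA than in control (95% counting interval 1.62 to 3.14) and 2.39-fold higher in CDDO+TPA than in TPA (1.73 to 3.33). Between CDDO+TPA and control the fold was 1.06 (0.826 to 1.37), so no difference was detectable at this depth. Wnt9a, a ligand known from joint and limb development, had 24.1, 16.2 and 16.7 CPM in the CDDO+TPA, TPA and control libraries. It was highest in the CDDO+TPA library, with a fold of 1.49 over TPA (1.18 to 1.87), and was past the size rule in no comparison.

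Other ligands moved on a handful of reads. Wnt11, a ligand of convergent extension movements and the gene whose promoter window held the TCF and LEF core, had 1 read in the CDDO+TPA library, 19 reads in the TPA library and 2 reads in the control library. Its TPA level was 9.56-fold that of control (2.31 to 84.6), and its CDDO+TPA level was 18.8-fold below TPA (2.99 to 782). Wnt5b, a paralogue of Wnt5a, had 1, 9 and 0 reads in the CDDO+TPA, TPA and control libraries. Its TPA level was 3.02-fold that of control with the control set at 3 counts, and the counting interval of the fold began at 1.99. Relative to TPA it was 8.92-fold lower in CDDO+TPA (1.24 to 391). The reads of Wnt5b and Wnt11 were mostly in the TPA library, through which alone both passed the level filter.

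Wnt8b, a ligand known from forebrain development, had 7 reads in the CDDO+TPA library, 12 in the TPA library and 1 in the control library, a TPA level 12.1-fold that of control (1.79 to 516). Wnt3, a ligand of early axis formation, had 9, 3 and 0 reads in the CDDO+TPA, TPA and control libraries, and Wnt7a, known from limb patterning, had 9, 3 and 1. Both were past the rule in CDDO+TPA against control alone. There Wnt3 was 3.05-fold higher with the control set at 3 counts, and the counting interval of its fold began at 2.00. Wnt7a was 9.14-fold higher (1.27 to 401). Wnt2b had 15, 8 and 15 reads and was past the rule in no comparison. Of the 11 ligands below the filter, Wnt4 reached 6 reads in the CDDO+TPA library and the others had at most 2 in any library. Summed over all 19 ligands, reads were 371 in the CDDO+TPA library, 244 in the TPA library and 280 in the control library.

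**Figure D2:**
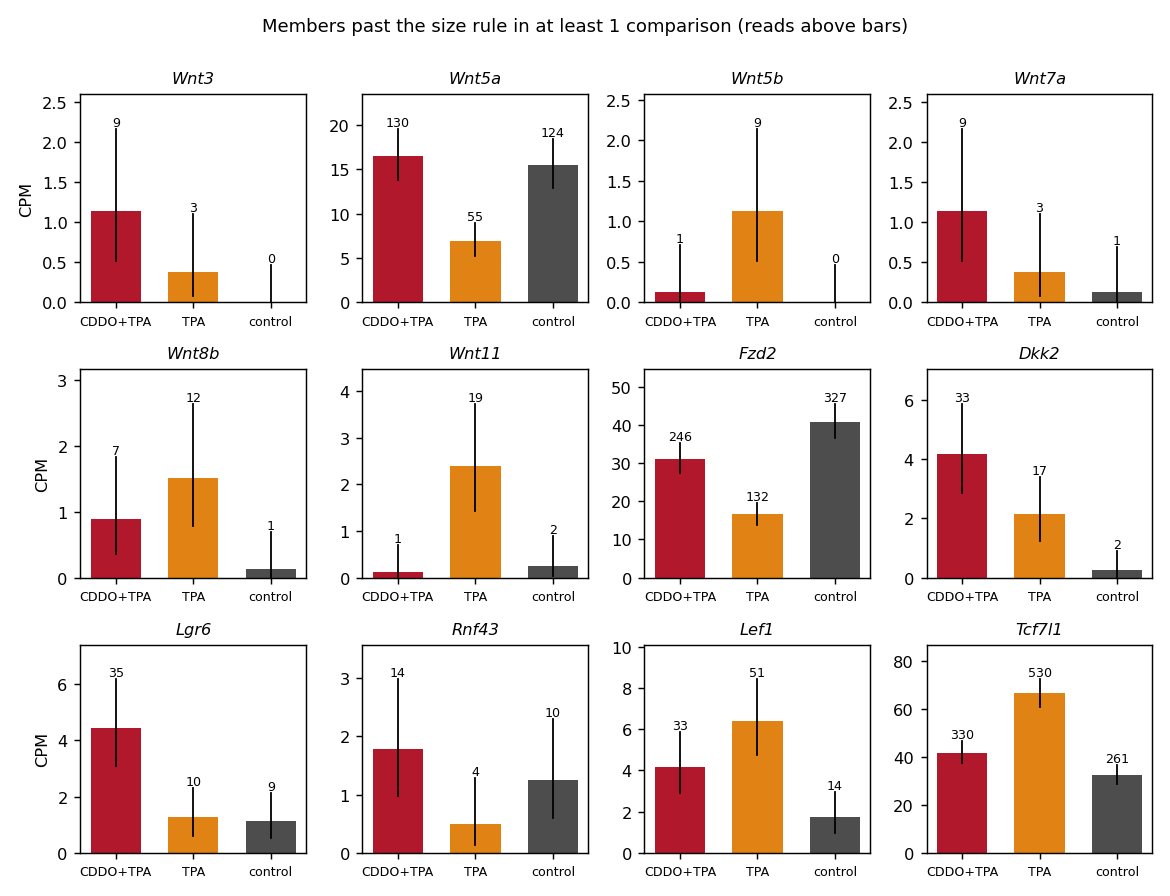
Level in CPM (bars, linear axis from 0) of the 12 members past the size rule in at least 1 comparison, in the CDDO+TPA, TPA and control libraries; lines are exact Poisson 95% intervals and the numbers above them are reads. Wnt5a and Fzd2 were lowest in the TPA library, Lef1, Tcf7l1 and Wnt11 were highest there, and Dkk2 and Lgr6 were highest in the CDDO+TPA library.

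Genes that make ligands ready for export were well measured. Wls, which encodes the carrier of Wnt proteins to the cell surface, had 206 CPM in the CDDO+TPA library, 189 CPM in the TPA library and 272 CPM in the control library. It was 1.44-fold lower in TPA than in control (1.35 to 1.54), an interval that excluded 1 at a size below the rule. Porcn, the acyltransferase that attaches the lipid, had 23.4, 22.7 and 30.0 CPM in the CDDO+TPA, TPA and control libraries, and was 1.32-fold lower in TPA (1.08 to 1.61). Both genes were thus highest in the control library.

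Among the receptors, 5 of the 10 Frizzled genes and both LRP coreceptor genes passed the filter. Fzd2, a receptor for which WNT5A is a known ligand, had 31.2 CPM (246 reads) in the CDDO+TPA library, 16.6 CPM (132 reads) in the TPA library and 40.8 CPM (327 reads) in the control library. It lies on chromosome 11, 102604431 to 102608058, plus strand (mm10). Fzd2 was 2.46-fold lower in TPA than in control (2.01 to 3.04), past the size rule, and 1.88-fold higher in CDDO+TPA than in TPA (1.52 to 2.34), short of it with a log2 fold change of 0.90. Against control, the CDDO+TPA library was 1.31-fold lower (1.11 to 1.55). Like Wnt5a, Fzd2 was thus lowest in the TPA library. The summed levels of the fibroblast and mesenchymal markers and of the melanocyte and Schwann cell markers given above were also lowest there, and their part was not tested. The fibroblast and mesenchymal markers did not run together. Fn1 had 1391, 1087 and 1519 CPM and Col1a1 had 267, 152 and 529 CPM in the CDDO+TPA, TPA and control libraries. In contrast, Vim had 356, 369 and 268 CPM and Pdgfra had 76.9, 34.9 and 5.24 CPM.

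Fzd4, a receptor of Norrin as well as of Wnt ligands, had 16.6, 10.9 and 20.3 CPM in the CDDO+TPA, TPA and control libraries. It too was lowest in TPA, 1.86-fold below control (1.43 to 2.44), short of the rule at a log2 fold change of -0.88. Fzd7, the Frizzled gene with the highest level per kilobase, had 71.5, 56.6 and 73.1 CPM, and Fzd3, a receptor known from axon guidance, had 84.9, 89.8 and 76.1 CPM. Neither reached the rule in any comparison. Fzd5 was the low one in the CDDO+TPA library, with 38.6 CPM there, against 73.2 CPM in TPA and 66.3 CPM in control. It was 1.89-fold lower in CDDO+TPA than in TPA (1.65 to 2.18), a log2 fold change of -0.92, just outside the rule. The members of the Frizzled family were therefore lowest in different libraries. Fzd1, Fzd6 and Fzd8 had at most 4 reads in any library.

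The coreceptor gene Lrp6 had 205 CPM in the CDDO+TPA library, 223 CPM in the TPA library and 234 CPM in the control library. Lrp5, its paralogue, had 99.8, 70.3 and 93.7 CPM, 1.42-fold higher in CDDO+TPA than in TPA (1.27 to 1.59). On the per-kilobase scale Lrp6 lay above Lrp5 in every library, with 21.9 against 19.3 in CDDO+TPA, 23.8 against 13.6 in TPA and 25.0 against 18.1 in control. Summed over all 12 receptors and coreceptors, the level was 548, 541 and 605 CPM in the CDDO+TPA, TPA and control libraries.

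**Figure D3:**
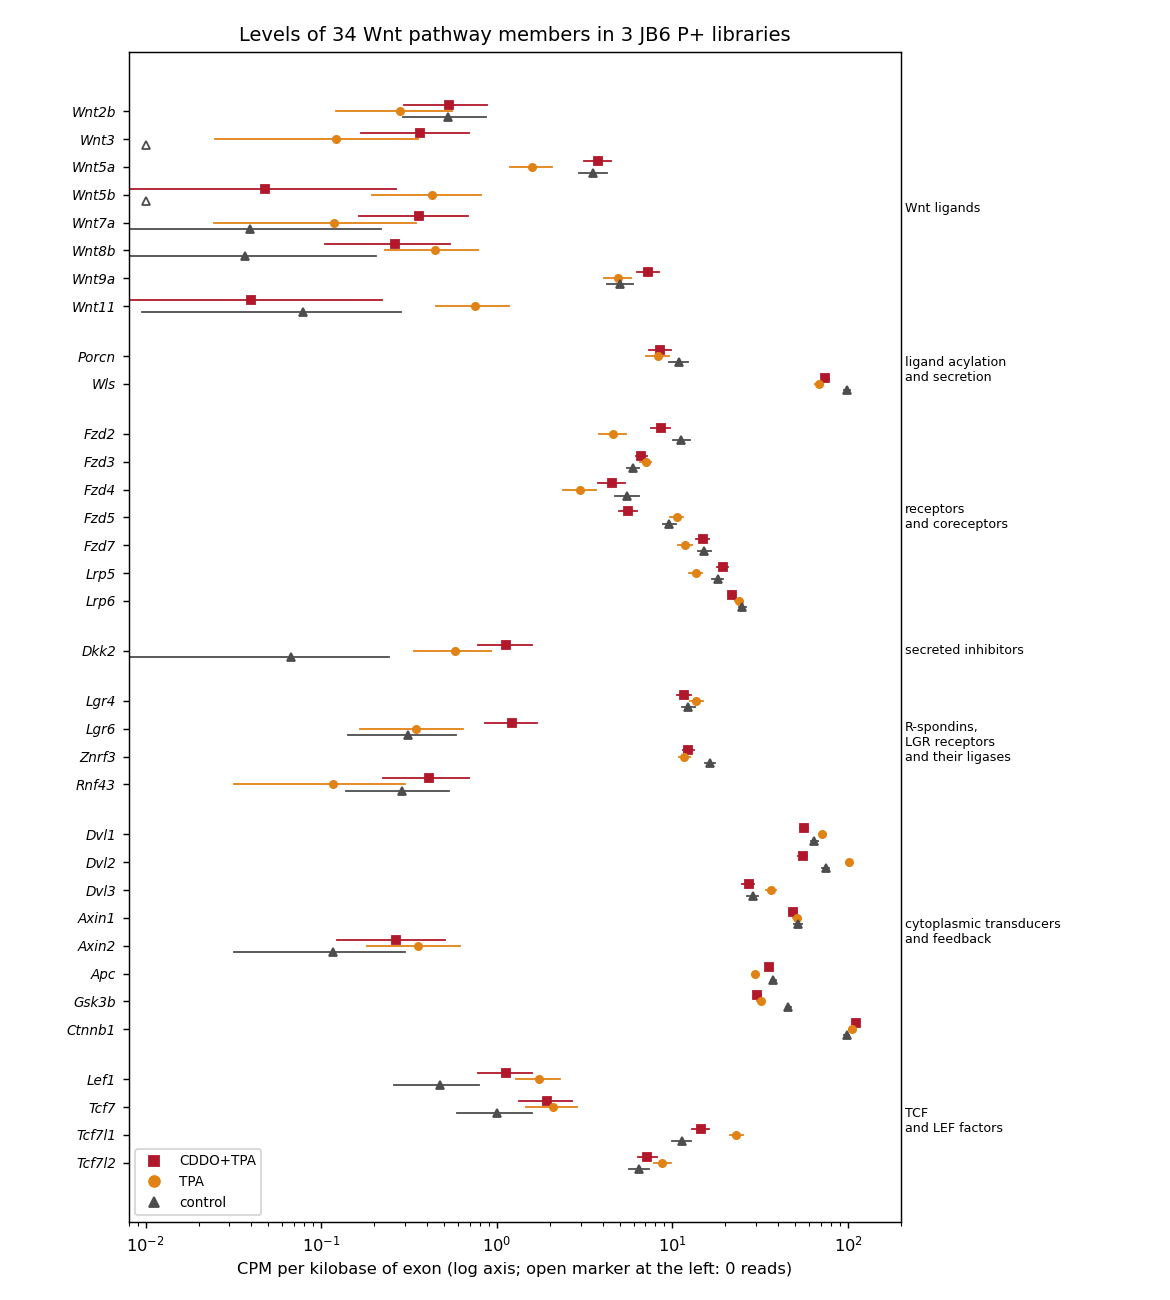
CPM per kilobase of exon (log axis) of the 34 members that passed the level filter, grouped by role, in the CDDO+TPA, TPA and control libraries; lines are exact Poisson 95% intervals and open markers stand for 0 reads. Transducers and coreceptors lie to the right, with Ctnnb1 and Wls near 100, and the ligands other than Wnt5a and Wnt9a lie below 1.

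The secreted inhibitors among the members were nearly silent. Dkk2, which encodes a Dickkopf protein that binds LRP coreceptors, was the 1 member of 10 to pass the filter. It had 33 reads in the CDDO+TPA library, 17 reads in the TPA library and 2 reads in the control library. The control library was the low one, and both treated libraries were past the size rule against it, with folds of 16.8 (4.28 to 144) for CDDO+TPA and 8.55 (2.03 to 76.3) for TPA. Dkk2 passed the level filter through the treated libraries only, so its direction against control was partly set by the filter. CDDO+TPA was 1.96-fold above TPA (1.06 to 3.75), short of the rule at a log2 fold change of 0.89. Dkk2 lies on chromosome 3, 132085292 to 132180304, plus strand (mm10). Of the remaining inhibitors, Notum, a deacylase that inactivates Wnt proteins, had 1, 3 and 0 reads in the CDDO+TPA, TPA and control libraries, and Dkk3, Dkk4, Sfrp1, Sfrp4 and Sfrp5 had at most 3 in any library.

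R-spondins amplify Wnt signalling through LGR receptors and the membrane ligases ZNRF3 and RNF43, which otherwise remove Frizzled proteins from the surface. None of the 4 R-spondin genes exceeded 1 read in any library. Lgr4, the broadly expressed receptor of the family, had 59.2, 69.2 and 62.4 CPM in the CDDO+TPA, TPA and control libraries and stayed short of the rule throughout. Lgr6, a marker of stem cells in the hair follicle, had 35 reads in the CDDO+TPA library, 10 in the TPA library and 9 in the control library. The CDDO+TPA library stood above the other two, 3.53-fold over TPA (1.71 to 8.00) and 3.95-fold over control (1.86 to 9.34). Lgr6 lies on chromosome 1, 134986353 to 135105276, minus strand (mm10). Lgr5, a Wnt target and stem cell marker, had at most 1 read in any library.

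Znrf3 had 94.3 CPM in the CDDO+TPA library, 89.6 CPM in the TPA library and 125 CPM in the control library, and was 1.40-fold lower in TPA than in control (1.27 to 1.54). Its paralogue Rnf43 had 14, 4 and 10 reads in the CDDO+TPA, TPA and control libraries. It was 3.53-fold higher in CDDO+TPA than in TPA (1.11 to 14.7), past the rule on few reads. Znrf3 was thus the main ligase gene in these cells, by 12.3, 11.7 and 16.4 CPM per kilobase against 0.411, 0.116 and 0.289 for Rnf43.

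Most cytoplasmic transducers were abundant, and none of the 8 cytoplasmic members measured was past the size rule in any comparison. Across all genes tested, 15.5%, 15.6% and 11.4% were past it in TPA against control, CDDO+TPA against TPA and CDDO+TPA against control. With 8 genes, no difference from these shares is read. Ctnnb1, which encodes beta-catenin, had 403 CPM in the CDDO+TPA library, 381 CPM in the TPA library and 355 CPM in the control library, and its folds stayed between 1.06 and 1.13. Axin1, the scaffold of the destruction complex, had 185, 193 and 196 CPM. Apc, its tumour suppressor partner, had 444, 365 and 467 CPM and was 1.28-fold lower in TPA than in control (1.22 to 1.34). Gsk3b, a kinase of the complex, had 253, 264 and 379 CPM and was 1.44-fold lower in TPA (1.36 to 1.52) than in control, and lower than control in CDDO+TPA as well, at a log2 fold change of -0.58 (1.42 to 1.59 as a fold). Of its 8298 exonic bases, 260 overlap BC031361 on the opposite strand, which had 20, 38 and 92 reads, and reads from the pair cannot be told apart there.

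Dishevelled genes were each highest in the TPA library. Dvl2, whose promoter window held an AP-1 site, had 162 CPM in the CDDO+TPA library, 298 CPM in the TPA library and 218 CPM in the control library. It was 1.84-fold lower in CDDO+TPA than in TPA (1.72 to 1.97), just outside the rule at a log2 fold change of -0.88, and 1.37-fold higher in TPA than in control (1.28 to 1.45). Dvl1 had 193, 246 and 222 CPM and Dvl3 had 80.1, 108 and 84.4 CPM in the CDDO+TPA, TPA and control libraries. Dvl1 shares 34 of its 3443 exonic bases with Tas1r3 on the opposite strand, which had 34, 184 and 93 reads, and reads cannot be told apart there. The folds of CDDO+TPA below TPA were 1.28 (1.19 to 1.37) for Dvl1 and 1.34 (1.21 to 1.49) for Dvl3. In the CDDO+TPA library all 3 genes were also below control, by 1.15-fold for Dvl1, 1.35-fold for Dvl2 and 1.05-fold for Dvl3, the last with an interval that included 1 (0.944 to 1.18).

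The feedback genes Axin2, Nkd1 and Nkd2 were barely detected or had no reads, unlike Znrf3. Axin2, the target most often used as a readout of the pathway, had 9 reads in the CDDO+TPA library, 12 reads in the TPA library and 4 reads in the control library. Its TPA level was 3.02-fold that of control with an interval that included 1 (0.915 to 12.8), so no difference was detectable at this depth. Nkd1 and Nkd2 had 0 reads in every library. Axin2 was at 0.268, 0.354 and 0.117 CPM per kilobase in the CDDO+TPA, TPA and control libraries, against 48.9, 51.1 and 51.9 for its paralogue Axin1.

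The TCF and LEF genes encode the DNA-binding partners of beta-catenin, and all 4 had their highest value in the TPA library. For Lef1 and Tcf7 the interval between CDDO+TPA and TPA included 1. Tcf7l1, a factor known mainly as a repressor of targets, had 41.8 CPM (330 reads) in the CDDO+TPA library, 66.5 CPM (530 reads) in the TPA library and 32.6 CPM (261 reads) in the control library. It was 2.04-fold higher in TPA than in control (1.76 to 2.38), just inside the rule at a log2 fold change of 1.02, and 1.59-fold lower in CDDO+TPA than in TPA (1.38 to 1.83). Tcf7l1 lies on chromosome 6, 72626371 to 72789045, minus strand (mm10), where 84 of its 2882 exonic bases overlap Gm15401 on the opposite strand, with at most 12 reads. Lef1, known mainly as an activator, had 33 reads in the CDDO+TPA library, 51 reads in the TPA library and 14 reads in the control library. Its folds over control were 3.66 in TPA (2.00 to 7.17) and 2.39 in CDDO+TPA (1.25 to 4.84), both past the rule, and CDDO+TPA was 1.53-fold below TPA with an interval that included 1 (0.969 to 2.45).

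Tcf7, a factor named for its part in T cells, had 34, 37 and 18 reads in the CDDO+TPA, TPA and control libraries. It was 2.07-fold higher in TPA than in control (1.15 to 3.86), just outside the rule at a log2 fold change of 0.97, and it was past the rule with library totals (1.03) or upper-quartile factors (1.03) in place of the scaling used. Its CDDO+TPA level was 1.08-fold below TPA with an interval that included 1 (0.658 to 1.77). Tcf7l2, the most widely expressed family member, had 32.8, 39.9 and 29.5 CPM and was 1.36-fold higher in TPA (1.14 to 1.61). Per kilobase, Tcf7l1 lay above Tcf7l2 in every library, with 14.5, 23.1 and 11.3 against 7.21, 8.77 and 6.47 in CDDO+TPA, TPA and control. Summed over the 4 genes, the level was 83.1 CPM in the CDDO+TPA library, 118 CPM in the TPA library and 66.0 CPM in the control library, 1.78-fold higher in TPA than in control (1.60 to 1.98) and 1.26-fold higher in CDDO+TPA than in control (1.12 to 1.41).

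Other genes of the pathway were taken from 6 lists of 97 genes outside the 66 members, of which 78 passed the level filter. These lists, too, were chosen with earlier results of these data known. In TPA against control, 8 were higher and 8 lower, and 20.5% were past the rule in either direction, against 15.5% of all genes. In CDDO+TPA against TPA, 10 were higher and 6 lower, again 20.5%, against 15.6% of all genes. In CDDO+TPA against control, 5 were higher and 3 lower, 10.3%, against 11.4% of all genes. The medians were 0.01, -0.02 and -0.02 in these comparisons, against 0.00, 0.01 and -0.02 over all genes. Genes of these lists that are named with under 10 CPM in every library, and Birc5 and Tbx3, were named after their values were seen. Among those past the rule, Ascl2 and T passed the level filter through the TPA library alone and Draxin through the CDDO+TPA library alone. Dact1 passed through both treated libraries and not through control.

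**Figure D4:**
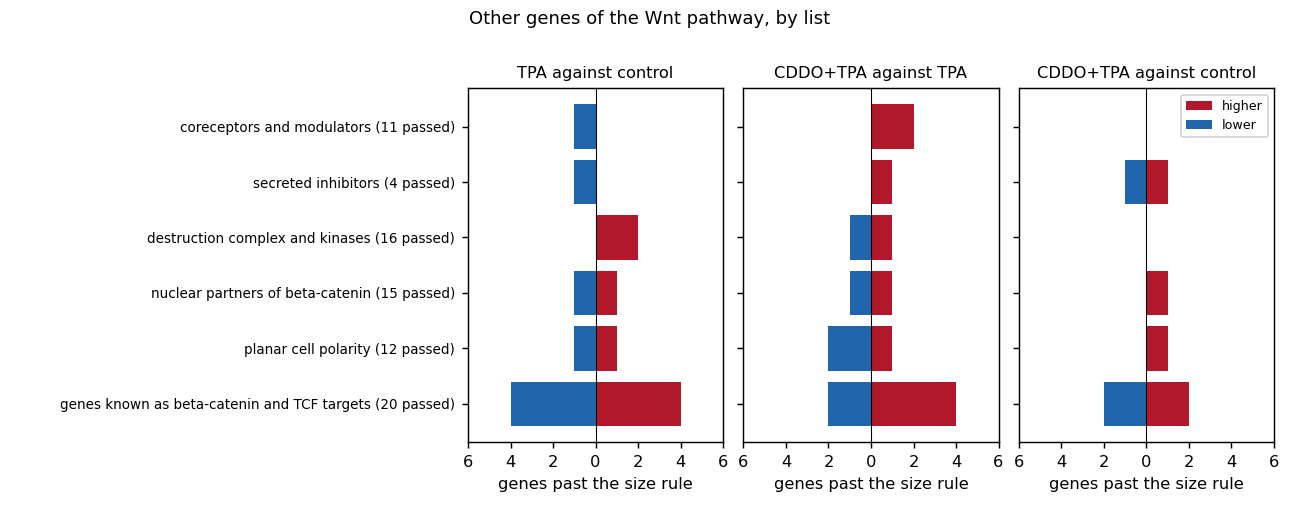
Number of genes past the size rule, higher to the right and lower to the left, in each of 6 lists of other Wnt pathway genes and each comparison; the number that passed the level filter stands beside each list. The list of known targets held 4 higher and 4 lower genes in TPA against control.

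Known targets of beta-catenin and TCF, of which 20 of 26 passed the filter, went both ways: 4 were higher and 4 lower in TPA against control, 4 higher and 2 lower in CDDO+TPA against TPA, and 2 higher and 2 lower in CDDO+TPA against control. Of all genes tested, 15.5%, 15.6% and 11.4% were past the rule in either direction in these comparisons. The list's medians in these comparisons were 0.09, -0.05 and 0.05. Sox9, a transcription factor of follicle stem cells, had 168 CPM in the CDDO+TPA library, 228 CPM in the TPA library and 63.1 CPM in the control library, 3.60-fold higher in TPA than in control (3.26 to 3.99). Wisp1, a CCN matricellular protein gene, had 88.9, 83.7 and 287 CPM and was lower than control in both treated libraries, 3.43-fold in TPA (3.15 to 3.75) and 3.23-fold in CDDO+TPA (2.97 to 3.52). Vcan, which encodes the proteoglycan versican, had 494, 164 and 594 CPM, the TPA library being the low one, 3.63-fold below control (3.41 to 3.86). Edn1, an endothelin gene, had 13, 9 and 107 reads in the CDDO+TPA, TPA and control libraries, 11.8-fold lower in TPA than in control (6.00 to 26.5). The remaining genes past the rule in TPA against control were Ascl2, Tbx3 and T, all higher, and Wisp2, which was lower. T, which encodes the mesoderm factor Brachyury, had 0 reads in the CDDO+TPA library, 47 reads in the TPA library and 2 reads in the control library. With the CDDO+TPA library set at 3 counts, T was 15.5-fold lower there than in TPA, and the counting interval of the fold began at 12.1. Sp5, a direct target, was not among the genes past the rule in any comparison.

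Birc5, also a mitotic gene, had 76.0, 34.6 and 30.2 CPM in the CDDO+TPA, TPA and control libraries, and was 2.19-fold higher in CDDO+TPA than in TPA (1.90 to 2.54). In CDDO+TPA against TPA, Vcan, Wisp2 and Fst were higher as well, and Ascl2 and T were lower.

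Planar cell polarity genes held the largest log2 fold change of the 6 lists, -6.07 for Celsr2 in CDDO+TPA against TPA. Celsr2, an adhesion receptor of that route, had 5 reads in the CDDO+TPA library, 473 reads in the TPA library and 12 reads in the control library, 93.7-fold lower in CDDO+TPA than in TPA (39.9 to 290.0) and 39.7-fold higher in TPA than in control (22.5 to 77.3). Its paralogue Celsr1 had 73, 20 and 20 reads in the CDDO+TPA, TPA and control libraries, and Celsr3 had 20, 56 and 40. Celsr1 was 3.68-fold higher in CDDO+TPA than in TPA (2.22 to 6.38), whereas Celsr3 was 2.77-fold lower (1.64 to 4.88). Daam1, a formin that acts with Dishevelled, had 124, 73.1 and 209 CPM and was 2.87-fold lower in TPA than in control (2.61 to 3.15). Of the 12 measured polarity genes, 1 was higher and 1 lower in TPA against control, 1 higher and 2 lower in CDDO+TPA against TPA, and 1 higher and 0 lower in CDDO+TPA against control. Their median log2 fold changes in those comparisons were 0.36, -0.23 and 0.06. Over all genes tested, 15.5%, 15.6% and 11.4% were past the rule in either direction.

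Of 11 measured coreceptors and modulators, 0 were higher and 1 lower in TPA against control, 2 were higher in CDDO+TPA against TPA, and none was past the rule in CDDO+TPA against control. The shares of all genes past the rule in those comparisons were 15.5%, 15.6% and 11.4%. Median log2 fold changes over the list were -0.33, 0.49 and 0.23 in those comparisons. Gpc4, a glypican that binds Wnt ligands, had 80.6 CPM in the CDDO+TPA library, 45.3 CPM in the TPA library and 131 CPM in the control library, 2.90-fold lower in TPA than in control (2.57 to 3.27). Gpc6, a related glypican, had 139, 55.9 and 94.1 CPM and was 2.49-fold higher in CDDO+TPA than in TPA (2.23 to 2.78). Ptk7, a polarity coreceptor, had 34.6, 16.6 and 27.6 CPM and was 2.09-fold higher in CDDO+TPA than in TPA (1.69 to 2.59). These 3 genes were lowest in the TPA library. This follows in part from their choice, since each was named for being past the rule in a comparison that includes that library.

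Among 4 measured secreted inhibitors outside the members, Trabd2b, a protease that cleaves Wnt proteins, had 11.7, 9.79 and 26.0 CPM in the CDDO+TPA, TPA and control libraries. It was lower than control in both treated libraries, 2.65-fold in TPA (2.03 to 3.48) and 2.23-fold in CDDO+TPA (1.73 to 2.88). Draxin, a guidance protein that antagonises Wnt signalling, had 12, 3 and 3 reads, past the rule in CDDO+TPA against TPA (4.04-fold, 1.09 to 22.3) and against control (4.06-fold, 1.10 to 22.4). These 4 genes had medians of -0.64 for TPA against control, 0.51 for CDDO+TPA against TPA and -0.31 for CDDO+TPA against control on the log2 scale. Of 16 measured genes of the destruction complex and its kinases, 2 were higher in TPA against control, Amer1 and Dact1, and 1 was higher (Apc2) and 1 lower (Frat2) in CDDO+TPA against TPA. None of the 16 was past the rule in CDDO+TPA against control, and the medians were 0.01, -0.20 and -0.09. The all-gene shares past the rule in these comparisons were 15.5%, 15.6% and 11.4%. Amer1, an APC-binding tumour suppressor, had 35.0, 54.6 and 21.2 CPM, 2.57-fold higher in TPA than in control (2.15 to 3.09). Apc2, a paralogue of Apc, had 67.4, 31.4 and 33.7 CPM and was 2.15-fold higher in CDDO+TPA than in TPA (1.84 to 2.51). Frat2, which encodes a GSK3-binding protein, had 5.20, 11.4 and 8.24 CPM and was 2.20-fold lower in CDDO+TPA than in TPA (1.51 to 3.26).

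Of 15 measured nuclear partners of beta-catenin, 1 was higher and 1 lower in TPA against control, 1 higher (Pygo1) and 1 lower in CDDO+TPA against TPA, and 1 higher in CDDO+TPA against control. Against these counts, 15.5%, 15.6% and 11.4% of all genes were past the rule in either direction. The medians in these comparisons were 0.02, -0.05 and -0.03. Tle2, a Groucho-type corepressor, had 25.7, 27.0 and 10.1 CPM in the CDDO+TPA, TPA and control libraries, 2.67-fold higher in TPA than in control (2.06 to 3.49) and 2.54-fold higher in CDDO+TPA (1.96 to 3.33). Tle3, its paralogue, had 79.3, 54.1 and 120 CPM and was 2.21-fold lower in TPA than in control (1.97 to 2.48). Crebbp, an acetyltransferase coactivator, had 122, 264 and 203 CPM and was 2.17-fold lower in CDDO+TPA than in TPA (2.01 to 2.35). Within the list, the corepressor paralogues Tle2 and Tle3 thus lay on opposite sides of control in the TPA library.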

How the data were processed

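The authors deposited 1 table of raw counts (whole reads for each gene symbol, with its exonic length). Per the file headers, featureCounts 1.5.3 counted primary alignments over UCSC mm10 genes without a strand option. The submitters' processing notes name HISAT2, Picard and DESeq, and the column names mark removal of duplicates, which can cap abundant genes; no member exceeded 0.877 reads per exonic base (Ctnnb1). Columns were matched to samples by name.

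Totals were scaled by TMM factors (edgeR 4.0.16, R 4.3.3): 1.00 for CDDO+TPA, 1.02 for TPA and 0.978 for control. Log2 fold changes used a prior count of 2, which shrinks those of genes with few reads. Folds are ratios of CPM with 95% intervals from the Clopper-Pearson binomial bounds of the paired counts (SciPy 1.17.1). CPM intervals are exact Poisson. Both cover counting error only. The procedure was tested on simulated counts that held counting error only and no spread between cultures. Folds were set there only in genes above a minimum level, so their recovery was not tested for members with few reads.

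Members and lists were chosen with earlier results of these data known. All measured members are named; for other lists, up to 4 genes past the rule with at least 10 CPM.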

Additional observations from a re-analysis of the deposited data

How the results depend on the processing

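No paired analysis was possible because each group has 1 library, and for the same reason no library could be left out. Other scalings (library totals, median-of-ratios or upper-quartile factors), a prior count of 5 and a filter of 1 read in any library left the counts within 1.5 times those reported, and no log2 fold change of the 34 members changed direction among those past the rule under the scalings and the prior count.

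A stricter filter or fold lowered most counts. With a mean of at least 10 CPM, 1 member was higher in TPA against control, 1 higher and 0 lower in CDDO+TPA against TPA, and 0 higher in CDDO+TPA against control. Of 59 other pathway genes at that level, 11 were past the rule in TPA against control. In CDDO+TPA against TPA they numbered 7, and in CDDO+TPA against control 5. At that filter 44.5% of all calls in TPA against control were higher, against 61.8% as reported, and 69.7% in CDDO+TPA against TPA, against 50.3%. With a log2 fold threshold of 2, 4 members were higher (Wnt5b, Wnt8b, Wnt11 and Dkk2, all on few reads) and 0 lower in TPA against control, 0 were higher and 1 lower in CDDO+TPA against TPA, and 2 were higher in CDDO+TPA against control; Wnt5a, Fzd2 and Tcf7l1 were not past it in any comparison. Other pathway genes then numbered 4, 3 and 1 in the order TPA against control, CDDO+TPA against TPA, CDDO+TPA against control. Of all genes, 8.67%, 7.57% and 6.79% were past the rule at the first setting and 5.24%, 5.47% and 3.27% at the second, against 15.5%, 15.6% and 11.4% as reported, in that order. Depth limits the 12 measured members with a mean under 10 CPM, whose intervals are wide.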
